A study of Mus musculus with 6 samples.

Results

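The 10 genes described here release, store, return or buffer the calcium of muscle contraction, and were followed in the soleus muscle of *Mustn1* heterozygous and wild-type mice. They are the release and triad genes *Cacna1s*, *Ryr1* and *Jph1*, the store genes *Casq1* and *Casq2*, the pump genes *Atp2a1* and *Atp2a2*, the pump regulators *Sln* and *Pln*, and the cytosolic buffer *Pvalb*. They were taken by name from the gene symbols, and all 10 were found among the 51912 genes of the count table. The study sequenced polyadenylated RNA from the soleus of 3 HET and 3 WT littermates at 8 weeks of age on the C57BL6/N strain. HET mice carry 1 KO-first allele of *Mustn1*, a gene trap present in every cell of the animal that was used without any Cre line, and WT mice carry none. All 6 samples are labelled male, yet each library held 3858 to 9154 reads on *Xist* and 0 to 12 reads summed over *Ddx3y*, *Kdm5d*, *Uty* and *Eif2s3y*, so the label goes against the reads in both genotypes alike. The labels number the samples 1 to 3 within a genotype but do not say which mice they came from, so p-values measure the spread between these samples.

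In a skeletal muscle fiber, depolarization of the transverse tubule is sensed by the L-type calcium channel and passed to the ryanodine receptor, which releases calcium from the sarcoplasmic reticulum. Calsequestrin holds calcium inside the store, and the SERCA pumps return it to end the contraction. Several of these proteins exist in a fast and a slow isoform, and the mouse soleus, a postural muscle, contains both slow and fast fibers.

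Libraries held 26790075 to 50368796 reads on genes. *Mustn1*, the targeted gene, was at 12.6, 16.8 and 13.1 CPM (counts-per-million, scaled with TMM factors) in HET libraries 1, 2 and 3. It was at 23.1, 29.0 and 30.5 CPM in WT libraries 1, 2 and 3, with a log2 fold change of -0.96 ± 0.15 (SE, n = 3 per genotype, edgeR adjusted p = 0.0452). The genotypes did not overlap for *Mustn1*. Its call was lost with limma-voom, with non-robust dispersion and with HET 1, HET 3, WT 1 or WT 2 left out, where no gene was lower past the threshold. In the edgeR fit over 14696 genes, 21 genes were higher and 1 was lower in HET past an adjusted p of 0.05, and the median log2 fold change was -0.02.

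None of the 10 calcium genes passed that threshold, beside 0.15% of all genes tested (0.143% higher and 0.0068% lower). The lowest adjusted p was 0.492, for *Pvalb*, and 2 genes, *Pvalb* and *Pln*, had an unadjusted p under 0.05 by edgeR and a log2 fold change below 0, where 2% of all genes tested did. None of the 10 had an unadjusted p under 0.05 with a value above 0, where 5.76% of all genes did. Of the 10 log2 fold changes, 9 were below 0, as were 54.4% of those of all genes, and their median was -0.09. For 4 genes, *Atp2a2*, *Jph1*, *Pln* and *Pvalb*, every HET library was below every WT library, as it was for 6.02% of all genes. No calcium gene had every HET library above every WT library, an order found for 7.55% of all genes. For 7 genes the log2 fold change was smaller than 0.15 in size.

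**Figure D1:**
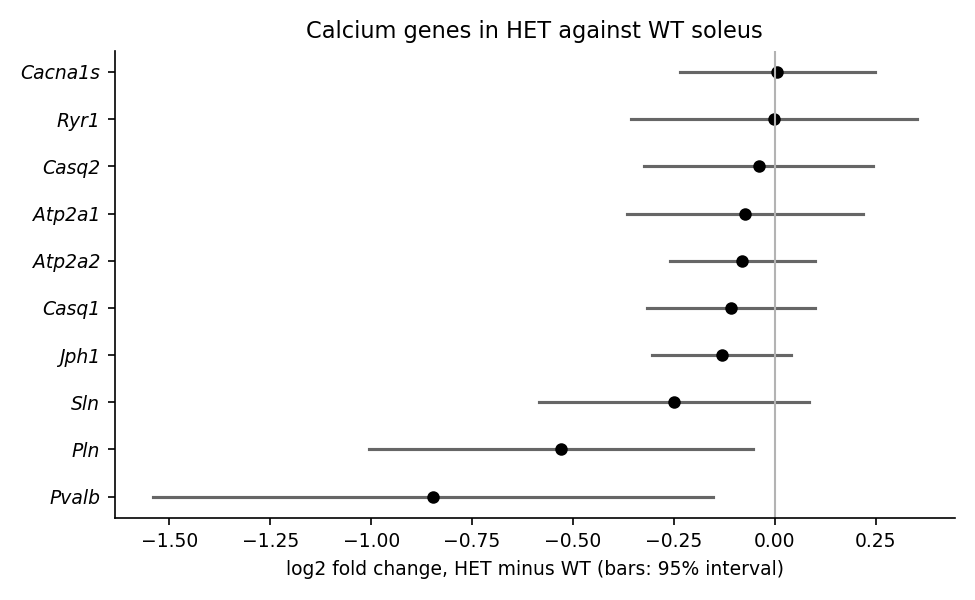
Log2 fold change of each calcium gene, HET minus WT, from the edgeR fit (points) with its 95% interval (horizontal bars), 3 libraries per genotype. The intervals of *Pvalb* and *Pln* lie below 0 and those of the other 8 genes include 0.

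The coding sequences of *Sln* and *Pln* are shown because each of these small pump regulators is encoded by a very short open reading frame. Sarcolipin is encoded by 96 bases including the stop codon, for 31 residues, at chr9:53853473-53853568 on the plus strand of GRCm38. Phospholamban is encoded by 159 bases, for 52 residues, at chr10:53343864-53344022 on the plus strand. Both were read from the GENCODE M21 transcripts, with the start and stop codons in capitals.
Sln: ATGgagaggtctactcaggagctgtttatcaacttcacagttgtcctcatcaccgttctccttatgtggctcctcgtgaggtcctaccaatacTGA
Pln: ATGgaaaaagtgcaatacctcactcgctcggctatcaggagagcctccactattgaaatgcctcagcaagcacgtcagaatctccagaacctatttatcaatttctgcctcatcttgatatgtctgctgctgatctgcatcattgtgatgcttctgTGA

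Promoters are shown for *Pvalb*, the gene with the lowest log2 fold change of the 10, and for the calsequestrin pair, whose isoforms differ between fiber types. Each is the 250 bases before the RefSeq gene start in GRCm38.p6, 5′ to 3′ on the strand of the gene. *Pvalb* is at chr15:78206401-78206650 on the minus strand, *Casq1* at chr1:172219896-172220145 on the minus strand and *Casq2* at chr3:102086165-102086414 on the plus strand. Capitals mark matches to the E-box (CANNTG, which reads the same on both strands), the motif of the MyoD family, and to the MEF2 motif on either strand.
Pvalb: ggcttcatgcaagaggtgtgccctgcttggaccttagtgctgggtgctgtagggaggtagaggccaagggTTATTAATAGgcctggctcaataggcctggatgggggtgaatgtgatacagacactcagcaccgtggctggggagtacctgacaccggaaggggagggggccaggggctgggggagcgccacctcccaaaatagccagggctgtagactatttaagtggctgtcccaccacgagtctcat
Casq1: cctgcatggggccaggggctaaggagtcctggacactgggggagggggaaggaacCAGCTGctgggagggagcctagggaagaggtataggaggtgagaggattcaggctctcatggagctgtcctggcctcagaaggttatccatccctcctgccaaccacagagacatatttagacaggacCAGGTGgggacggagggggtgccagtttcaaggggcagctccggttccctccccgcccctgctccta
Casq2: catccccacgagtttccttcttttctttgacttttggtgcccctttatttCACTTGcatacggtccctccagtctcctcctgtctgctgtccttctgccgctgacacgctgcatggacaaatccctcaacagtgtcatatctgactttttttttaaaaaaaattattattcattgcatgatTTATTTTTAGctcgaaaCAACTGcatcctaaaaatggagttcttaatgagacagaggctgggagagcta

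The *Pvalb* promoter shown held a MEF2 match and no E-box, *Casq1* held 2 E-boxes and no MEF2 match, and *Casq2* held 2 E-boxes and a MEF2 match. RefSeq promoters were matched for 7 of the 10 genes, 8 promoters in all because *Pvalb* has a second start. The promoter of that second start, at chr15:78204238-78204487, held 1 E-box and no MEF2 match. Of the 8 promoters, 6 held an E-box and 2 a MEF2 match. Among 32851 promoters of the same length, 66.2% held an E-box and 2.92% a MEF2 match. *Atp2a2*, *Sln* and *Jph1* were not matched.

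Levels were compared between genes per length, as CPM per kilobase (RPKM) over the joined exons of each gene. In WT soleus, *Atp2a1*, the fast-fiber SERCA1 pump, was the highest of the 10 genes at 3715 ± 383 RPKM (SD, n = 3). *Atp2a2*, the SERCA2 pump of slow fibers and heart, followed at 1434 ± 58.1 RPKM, so that the *Atp2a1* level was 2.59 times that of *Atp2a2*. *Casq1* was at 825 ± 70.2 RPKM, *Pvalb* at 533 ± 123 RPKM and *Casq2* at 248 ± 34.3 RPKM. *Ryr1* and *Cacna1s*, the partners of the release step, stood side by side over the joined exons, at 159 ± 23.0 and 154 ± 13.7 RPKM. *Sln* was at 86.1 ± 17.8 RPKM, *Jph1* at 54.7 ± 0.954 RPKM and *Pln* at 1.77 ± 0.497 RPKM. *Jph1* was thus 31.0 times as high as *Pln*, the largest step in the order.

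The order of the levels was the same in HET and WT means. Neighbours in it did not overlap over the 6 libraries except for a pair of steps. *Ryr1* was above *Cacna1s* in 3 of 6 libraries, with a ratio of WT means of 1.04, and *Pvalb* was above *Casq2* in 5 of 6. The lowest *Pvalb* level, 197 RPKM in HET 1, was below the 270.0 RPKM of *Casq2* in that library. *Pln* rested on 102 to 318 reads per library, whereas *Atp2a1* rested on 334095 to 711244. The choice of length moved *Ryr1* most. Over the longest coding transcript, with 109 exons, its WT level was 227 RPKM, against 161 RPKM for *Cacna1s* and 278 RPKM for *Casq2*. *Ryr1* and *Cacna1s* were thus side by side only over the joined exons. *Jph1* was at 56.8 RPKM, and the order of the WT means was unchanged. Overlap between neighbours was examined over the joined exons only.

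**Figure D2:**
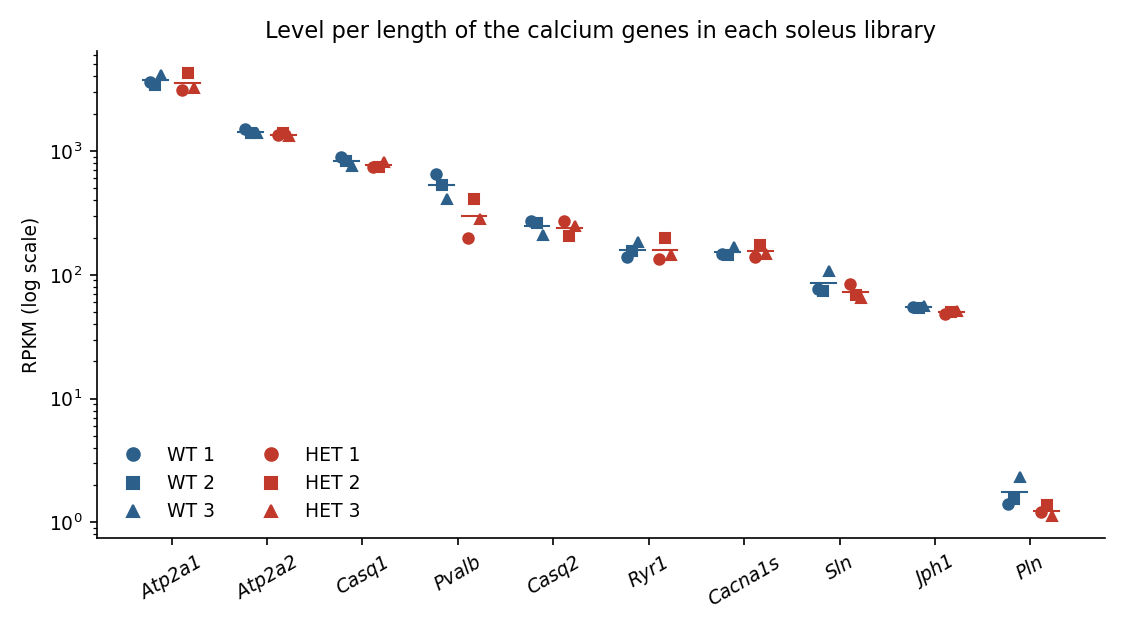
RPKM (log axis) of the 10 calcium genes in each of the 3 WT (blue) and 3 HET (red) libraries, with the replicate number as the symbol and the mean as a line, in the order of the WT means. *Atp2a1* and *Pln* mark the ends of the range, at 3715 and 1.77 RPKM in WT, and the gap between the genotypes is widest for *Pvalb* and *Pln*.

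The release step begins with *Cacna1s* (chr1:136052750-136119822, plus strand), which encodes the pore-forming, voltage-sensing subunit of the skeletal muscle L-type channel. *Cacna1s* was at 913, 1148 and 972 CPM in HET libraries 1, 2 and 3 and at 971, 940.1 and 1109 CPM in WT libraries 1, 2 and 3. HET 2 and WT 3 were the high libraries of their genotypes, and the genotypes overlapped. The log2 fold change was 0.01 ± 0.11 (SE, 95% interval -0.23 to 0.25, edgeR adjusted p = 0.995).

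*Ryr1* (chr7:29003344-29125179, minus strand) encodes the release channel itself. It was at 2916, 4342 and 3156 CPM in HET and at 3015, 3405 and 4013 CPM in WT, again high in HET 2 and WT 3. The genotype means were nearly equal, with a log2 fold change of -0.0028 ± 0.16 (SE, edgeR adjusted p = 0.999). The 95% interval, -0.36 to 0.35, spans folds of 0.781 to 1.28. This interval is not a detection limit, and the size of change in *Ryr1* that 3 libraries per genotype could detect was not tested.

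*Jph1* (chr1:16964560-17097889, minus strand) encodes junctophilin 1, which tethers the sarcoplasmic reticulum to the transverse tubule. It was at 241, 252 and 255 CPM in HET and at 273, 269 and 278 CPM in WT. The libraries of each genotype lay close together and did not overlap with the other genotype. The log2 fold change was -0.13 ± 0.08 (SE, 95% interval -0.30 to 0.04), and the edgeR adjusted p was 0.801.

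In the store, *Casq1* (chr1:172209894-172219868, minus strand) encodes the calsequestrin that is the main form of fast fibers and is also present in slow fibers. It was at 1439, 1453 and 1588 CPM in HET and at 1735, 1632 and 1464 CPM in WT. WT 3 was within the HET range, and the log2 fold change was -0.11 ± 0.09 (SE, edgeR adjusted p = 0.880). *Casq2* (chr3:102086415-102146514, plus strand), the calsequestrin of heart and slow fibers, was at 739, 564 and 674 CPM in HET and at 748, 714 and 571 CPM in WT. HET 2 and WT 3, the high libraries for *Ryr1*, were the low ones for *Casq2*, and its log2 fold change was -0.04 ± 0.13 (SE, edgeR adjusted p = 0.975).

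For uptake, *Atp2a1* (chr7:126445858-126463108, minus strand) was at 10749.9, 14855 and 11213 CPM in HET and at 12488, 11849 and 14409.7 CPM in WT. The highest library of all was HET 2 and the lowest HET 1, so the genotypes overlapped over their whole range. The log2 fold change was -0.07 ± 0.13 (SE, 95% interval -0.37 to 0.22, edgeR adjusted p = 0.951). *Atp2a2* (chr5:122453513-122502225, minus strand) varied least of the pumps, at 8241, 8468 and 8025 CPM in HET and 9129, 8515 and 8519 CPM in WT. Its genotypes did not overlap, although HET 2 and WT 2 were nearly level, and the log2 fold change was -0.08 ± 0.08 (SE, edgeR adjusted p = 0.899). The 95% interval for *Atp2a2* spans folds of 0.835 to 1.07.

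Added per length, the SERCA messages *Atp2a1*, *Atp2a2* and *Atp2a3* came to 4449.7 to 5668 RPKM in HET and 4811 to 5548 RPKM in WT. *Atp2a1* made up 69.5, 75.4 and 70.9% of that sum in HET and 70.5, 70.8 and 74.7% in WT. *Atp2a2* made up 24.6 to 30.5% in HET and 25.3 to 29.5% in WT, and *Atp2a3*, the SERCA3 pump of non-muscle cells, at most 0.0642% in any library. The split between the fast and the slow pump therefore overlapped between the genotypes, with HET 2 and WT 3 at the high end for *Atp2a1*.

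*Sln* (chr9:53850164-53854560, plus strand) encodes sarcolipin, a membrane peptide that binds SERCA and lowers its calcium transport. It was at 111, 91.0 and 84.9 CPM in HET and at 102, 98.2 and 141 CPM in WT. WT 3 was the highest library and the genotypes overlapped, with a log2 fold change of -0.25 ± 0.15 (SE, 95% interval -0.58 to 0.09, edgeR adjusted p = 0.808). Without WT 3 the *Sln* value was -0.07.

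*Pln* (chr10:53337667-53345987, plus strand) encodes phospholamban, the inhibitor of SERCA2 in heart and slow fibers, whose inhibition is relieved by phosphorylation. It was at 3.34, 3.80 and 3.10 CPM in HET and at 3.91, 4.26 and 6.44 CPM in WT. All WT libraries were above all HET libraries, the nearest being WT 1 and HET 2, and WT 3 stood above the rest. The log2 fold change was -0.53 ± 0.21 (SE, 95% interval -1.01 to -0.05), with an unadjusted p of 0.0322 and an adjusted p of 0.567 by edgeR. Without WT 3 the *Pln* value was -0.26 (edgeR adjusted p = 0.852). Per length, the SERCA messages exceeded those of *Sln* 53.0 to 82.1 times in HET and 52.0 to 66.0 times in WT, and those of *Pln* 3677 to 4115 times in HET and 2376 to 3592 times in WT.

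*Pvalb* (chr15:78191114-78206400, minus strand) encodes parvalbumin, the cytosolic calcium buffer of fast fibers, which is most abundant in type IIb fibers of the mouse. It was at 205, 426 and 295 CPM in HET and at 684, 552 and 429 CPM in WT, or 309 ± 111 and 555 ± 128 CPM (SD, n = 3). Every WT library was above every HET library, but HET 2 and WT 3 were nearly level. The log2 fold change was -0.85 ± 0.29 (SE, 95% interval -1.54 to -0.15), with an unadjusted p of 0.0237 and an adjusted p of 0.492 by edgeR. Its libraries spread more than those of any other of the 10 genes, 3.34-fold from the lowest to the highest, against 1.14-fold for *Atp2a2*. In bulk muscle, fewer fibers of a type and less RNA per fiber cannot be told apart.

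*Myh4*, *Mybpc2* and *Actn3*, from the list of fast fiber markers, were lowest in the libraries that were lowest for *Pvalb*. *Myh4*, the type IIb myosin heavy chain, was at 44.7, 2042 and 167 CPM in HET and at 1470, 1774 and 976 CPM in WT. HET 1 and HET 3, the lowest libraries for *Pvalb*, were the lowest for *Myh4* too, while HET 2 was the highest of all 6. *Mybpc2*, the fast myosin-binding protein C, was at 85.1, 301 and 182 CPM in HET and at 420, 344 and 266 CPM in WT. *Actn3*, the alpha-actinin of fast fibers, was at 262, 739 and 442 CPM in HET and at 877, 673 and 724 CPM in WT. HET 1 was the lowest library for *Pvalb*, *Myh4*, *Mybpc2* and *Actn3* alike, and HET 3 the next lowest. The log2 fold changes were -0.91 ± 1.499 for *Myh4*, -0.86 ± 0.50 for *Mybpc2* and -0.66 ± 0.38 for *Actn3* (SE), and none passed the threshold (edgeR adjusted p = 0.948, 0.822 and 0.821). Among the other fast markers, *Myl1* and *Tnnt3* were also lowest in HET 1, at 1490 and 8684 CPM, with WT 1 at 1752 and 9905 CPM. *Mylpf*, *Tnni2* and *Tnnc2* were lowest in HET 3, at 2254, 2723 and 2650 CPM. *Myh1* was lowest in HET 2 and *Myh2* in WT 1. *Mybpc2*, *Actn3*, *Myl1*, *Tnnt3*, *Mylpf*, *Tnni2* and *Tnnc2* were named after their values were seen.

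The main myosins of the soleus were not ordered like *Pvalb* over the libraries. *Myh7*, the slow type I myosin, was at 13879, 14766 and 13881 CPM in HET and at 14432, 13642 and 14111 CPM in WT. *Myh2*, of type IIa fibers, was at 13075, 16003 and 14114 CPM in HET and 12653, 13265 and 13235 CPM in WT, and *Myh1*, of type IIx fibers, at 4976, 4083 and 5492 CPM in HET and 7031, 4357 and 6658 CPM in WT. Of the 4 adult myosin messages per length, *Myh4* was 0.175, 6.87 and 0.619% in HET and 5.09, 6.66 and 3.45% in WT, and *Myh7* 34.8 to 38.1% in HET and 34.9 to 35.9% in WT. Of 10 fast fiber markers, 9 had a log2 fold change below 0 (54.4% of all genes) with a median of -0.20, 3 had every HET library below every WT library (6.02% of all genes), and 0 passed the threshold. Of 8 slow fiber markers, 6 were below 0 with a median of -0.08 and 0 passed. The part of fiber composition in the *Pvalb* difference was not tested.

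**Figure D3:**
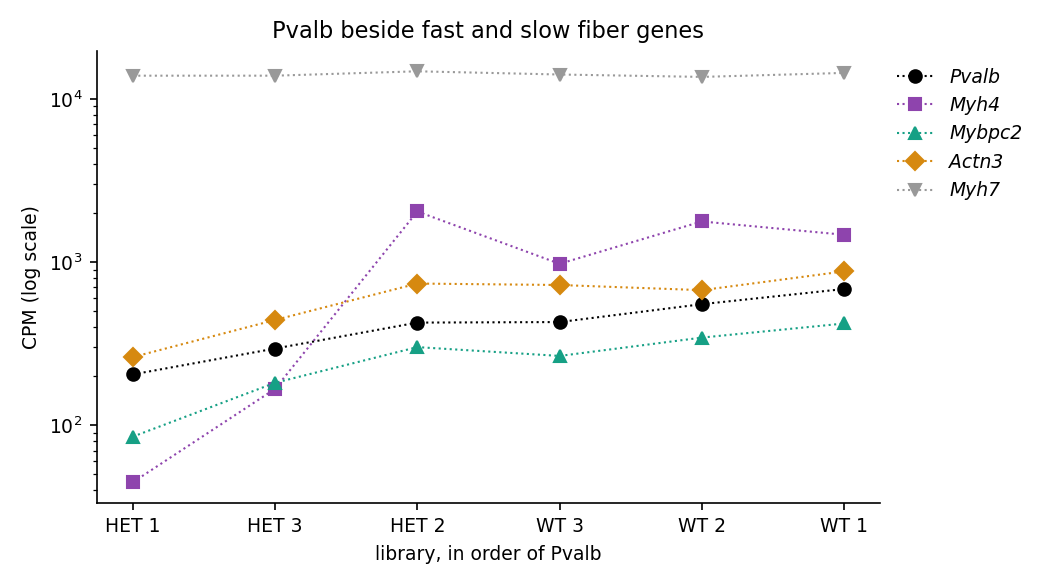
CPM (log axis) of *Pvalb*, 3 fast fiber genes (*Myh4*, *Mybpc2*, *Actn3*) and the slow *Myh7* in each library, with libraries placed in the order of *Pvalb* and joined by dotted lines only to guide the eye. These 3 fast genes are lowest in HET 1 and HET 3, where *Myh4* is at 44.7 and 167 CPM, and *Myh7* is nearly level across libraries.

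Fast and slow isoforms of the pump and of calsequestrin, and the regulators *Sln* and *Pln*, were then set against each other within each library, where scaling factors cancel. The ratio of *Atp2a1* to *Atp2a2* per length was 2.28, 3.07 and 2.44 in HET and 2.39, 2.43 and 2.96 in WT, a log2 difference of -0.0034 between the genotype means (two-sided exact permutation p = 1). The ratio of *Casq1* to *Casq2* was 2.73, 3.61 and 3.30 in HET and 3.25, 3.21 and 3.59 in WT, a log2 difference of -0.07 (exact permutation p = 0.9). Both ratios were highest in HET 2 and, among WT libraries, in WT 3. The ratio of *Sln* to *Pln* was 69.4, 50.1 and 57.4 in HET and 54.4, 48.3 and 45.7 in WT, a log2 difference of 0.24 (exact permutation p = 0.2). Adjusted over the 3 ratios by Benjamini-Hochberg, the exact permutation p-values were 1, 1 and 0.6. The genotypes overlapped for all 3 ratios, and 3 libraries against 3 cannot give an exact p under 0.1.

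**Figure D4:**
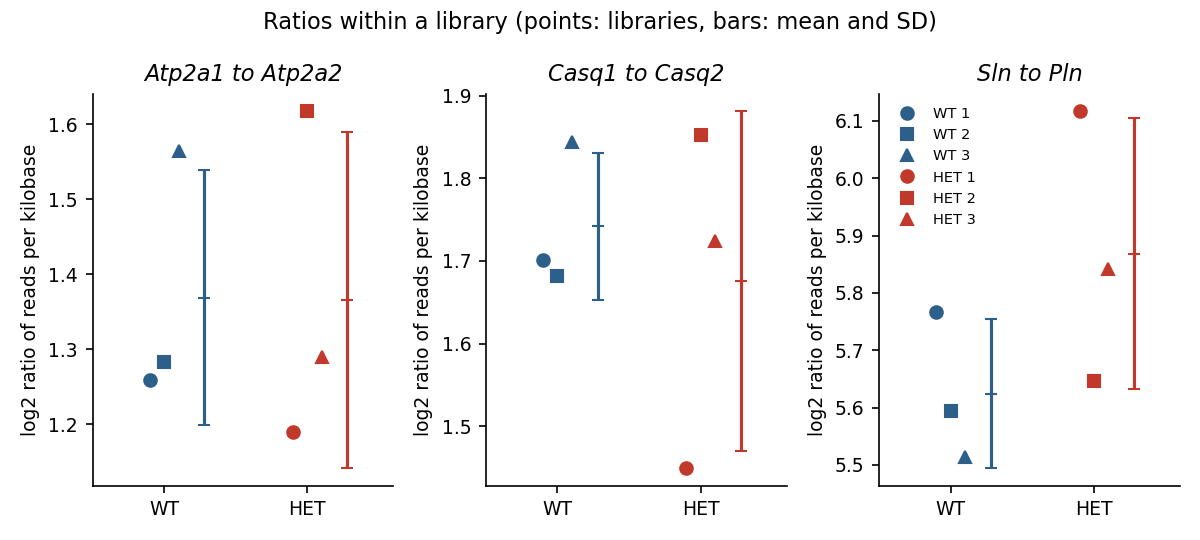
Log2 ratio of reads per kilobase within each library for *Atp2a1* to *Atp2a2*, *Casq1* to *Casq2* and *Sln* to *Pln* in WT (blue) and HET (red), with symbols for the replicate number and bars for the mean and SD of 3 libraries. The points of the genotypes overlap in each panel, and HET 2 and WT 3 are the highest of their genotype in the pump and calsequestrin panels.

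HET 2 and WT 3 stood on the same side of their genotype mean for several of the calcium genes. *Ryr1*, *Atp2a1* and *Cacna1s* were above the mean of the genotype in both, by 0.34, 0.29 and 0.19 on the log2 scale in HET 2 and by 0.22, 0.16 and 0.14 in WT 3. *Casq2* was below it, at -0.22 in HET 2 and -0.24 in WT 3. The first group has the highest GC content of the 10 genes, 57.8% for *Ryr1*, 55.3% for *Atp2a1* and 54.1% for *Cacna1s* in the longest coding transcript, against 46.7% for *Casq2*. *Casq1*, next in GC content at 51.8%, was below the mean of the genotype in both, at -0.04 in HET 2 and -0.13 in WT 3. The GC-poor genes were not all low in these libraries: *Pln* (38.6%) was above the mean of the genotype by 0.16 in HET 2 and 0.43 in WT 3, *Jph1* (46.7%) by 0.02 and 0.03, and *Sln* (47.0%) was at -0.06 in HET 2 and 0.33 in WT 3. When each library's trend on GC content was removed, an alternative chosen after seeing the data, the spread within genotypes fell from 0.260 to 0.159 (log2 SD) for *Ryr1*, from 0.207 to 0.135 for *Atp2a1* and from 0.15 to 0.0984 for *Cacna1s*. It also fell for *Casq2*, from 0.203 to 0.160. For the other genes the spread grew, from 0.289 to 0.420 for *Pln* and from 0.0371 to 0.0721 for *Jph1*. It went from 0.104 to 0.116 for *Casq1*, from 0.245 to 0.257 for *Sln* and from 0.0492 to 0.0569 for *Atp2a2*. For *Pvalb* it went from 0.443 to 0.446, but the trend at its GC content was only -0.0168 to 0.0238 in any library. Removing so small a trend could hardly alter the *Pvalb* spread. No calcium gene passed the threshold in that fit.

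**Figure D5:**
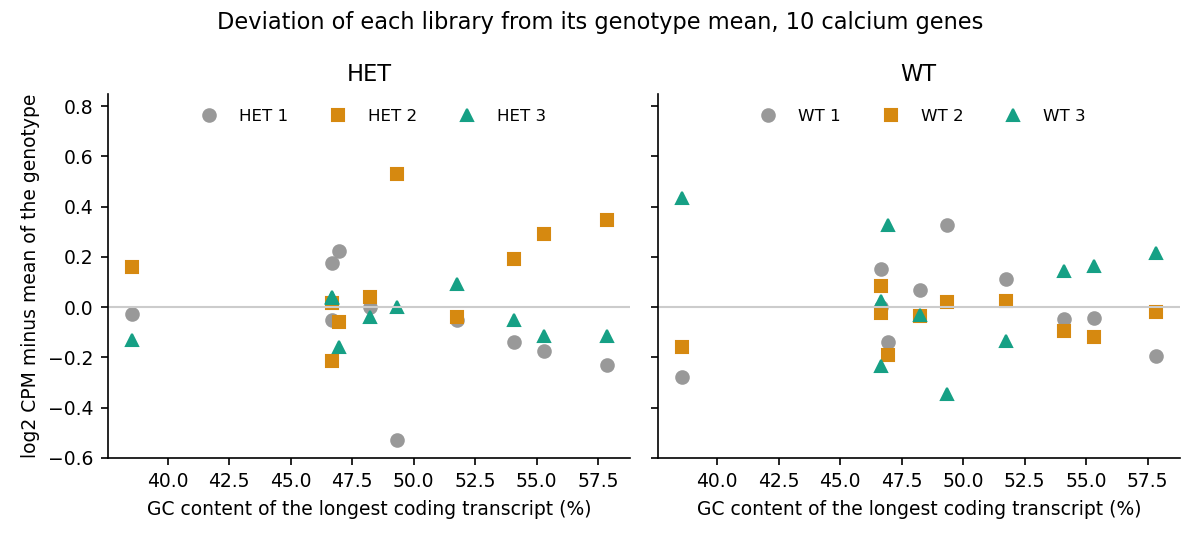
Deviation of each library's log2 CPM from the mean of its genotype, plotted against the GC content (%) of the longest coding transcript, for the 10 calcium genes in HET (left) and WT (right), with colors and symbols for the replicate number. At the GC-rich end, *Cacna1s*, *Atp2a1* and *Ryr1* lie above 0 in HET 2 and WT 3 and below 0 in the other libraries.

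The wider calcium system was examined in 5 lists holding 68 genes besides the 10, of which 67 were found and 65 tested. None passed the threshold by edgeR, the lowest adjusted p by edgeR was 0.544, 3 had an unadjusted p under 0.05 (5.76% of all genes tested had one with a higher and 2% with a lower value in HET), and 45 had a log2 fold change below 0 with a median of -0.04, where 54.4% of all genes were below 0 with a median of -0.02. The same shares are the background for each list. Of the 65 genes, 43 had a log2 fold change smaller than 0.15 in size.

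Among 15 tested genes of the release channel and triad, 11 were below 0 with a median of -0.05. The range ran from *Trdn*, triadin, which links calsequestrin to the ryanodine receptor, at -0.23 ± 0.14 (SE), to *Stac3*, an adaptor of the voltage sensor, at 0.02 ± 0.09. *Trdn* was at 1584, 1132 and 1513 CPM in HET and 1847, 1655 and 1453 CPM in WT, low in HET 2 and WT 3 like *Casq2*. Among 10 genes of the store and uptake, 7 were below 0 with a median of -0.05. *Strit1*, which encodes the SERCA-activating peptide DWORF, was lowest at -0.54 ± 0.36 with 1.75 to 3.07 CPM in HET and 2.03 to 5.53 CPM in WT, and *Calr*, the chaperone and calcium store protein calreticulin, was highest at 0.17 ± 0.10. The genotypes overlapped for all 4 of these genes.

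Among 12 genes of store-operated entry and extrusion, 8 were below 0 with a median of -0.04. They ranged from *Slc8a3*, a sodium-calcium exchanger, at -0.29 ± 0.18 to *Atp2b4*, a plasma membrane calcium pump, at 0.26 ± 0.22. Among 9 genes of mitochondrial uptake, 6 were below 0 with a median of -0.03. *Mcub*, the dominant-negative subunit of the mitochondrial uniporter, was at 1.20, 1.53 and 1.41 CPM in HET and 0.502, 1.17 and 0.689 CPM in WT, with every HET library above every WT library. Its log2 fold change was 0.82 ± 0.34 (unadjusted p = 0.0350 and adjusted p = 0.581 by edgeR), while *Micu3*, a uniporter gatekeeper, was lowest of that list at -0.26 ± 0.16.

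Among 19 tested genes of calcium sensors, calcineurin and CaM kinase, 13 were below 0 with a median of -0.09. *Ppp3ca*, a catalytic subunit of calcineurin, was at 204, 188 and 204 CPM in HET and 242, 223 and 224 CPM in WT, without overlap, and its log2 fold change was -0.21 ± 0.08 (unadjusted p = 0.0290 and adjusted p = 0.544 by edgeR). *Myoz2*, the calcineurin-binding calsarcin of slow fibers and heart, was at 1464, 1382 and 1348 CPM in HET and 1595, 1612 and 1546 CPM in WT, likewise without overlap, at -0.18 ± 0.08 (unadjusted p = 0.0493 and adjusted p = 0.643 by edgeR). *Myoz1*, its fast fiber relative, was the lowest of the list at -0.22 ± 0.11 with overlapping genotypes. *Nfatc4*, a transcription factor that calcineurin activates, was the highest at 0.37 ± 0.17, at 5.56 to 6.82 CPM in HET and 3.85 to 5.31 CPM in WT.

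Markers of other cell types were counted in the same fit. Of 9 macrophage markers, 5 were higher in HET past the threshold (0.143% of all genes), and the list summed to 82.1 to 119 CPM in HET and 47.9 to 52.9 CPM in WT. Of 9 fibroblast and fibro-adipogenic progenitor markers, 1 was higher past the threshold (2518 to 3591 against 1156 to 1955 CPM summed), and of 7 tenocyte markers 0 were, although all 7 were above 0 (356 to 613 against 118 to 288 CPM). The macrophage and fibroblast calls were lost with HET 1, HET 3, WT 1 or WT 2 left out, where no gene passed the threshold. The 15 genes of the muscle fiber reference summed to 91563 to 104847 CPM in HET and 99034 to 104930 CPM in WT, and 0 passed. Of these 15 genes, 12 had a log2 fold change below 0, with a list median of -0.08. With libraries scaled to that reference the log2 fold change was -0.81 for *Pvalb*, -0.46 for *Pln* and -0.17 for *Sln*. Under that scaling *Jph1* was at -0.07, *Casq1* at -0.04 and *Atp2a1* and *Atp2a2* at -0.02. *Casq2*, *Ryr1* and *Cacna1s* were above 0, at 0.03, 0.05 and 0.07, and no calcium gene passed the threshold. Smooth muscle (7 genes), endothelial (6) and adipocyte (5) markers had 0 past the threshold. Of the adipocyte markers 4 were above 0 with a list median of 0.95, and *Adipoq*, the adipokine adiponectin, was at 9.96, 26.1 and 13.1 CPM in HET and 2.44, 2.94 and 14.2 CPM in WT, highest in HET 2 and, among WT libraries, in WT 3. *Plin1* and *Cidec* were highest in the same libraries. *Lep* was instead highest of the HET libraries in HET 3, at 4.97 CPM. *Fabp4*, the most abundant of the list, was lowest of the WT libraries in WT 3, at 221 CPM. The smooth muscle genes *Acta2* and *Myh11* were at 54.0 to 75.9 and 34.7 to 50.8 CPM in HET and at 49.1 to 71.5 and 24.9 to 48.7 CPM in WT. The part of these cells in the values of the calcium genes was not tested. *Adipoq*, *Plin1*, *Cidec*, *Lep*, *Fabp4*, *Acta2*, *Myh11*, *Nppa*, *Nppb*, *Myh6*, *Tnnt2*, *Tnni3* and *Ryr2* were named after their values were seen. The cardiac list, relevant to *Pln*, *Casq2* and *Atp2a2*, had *Nppa* at 0 to 0.0456 CPM and *Nppb* at 0 to 0.0810 CPM over the 6 libraries. *Myh6* was at 14.9 to 21.1 CPM and *Tnnt2* at 7.93 to 11.2 CPM, both above *Pln* in every library. Of the 6 genes 4 were tested and 0 passed the threshold.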

How the data were processed

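RNA from 3 HET and 3 WT soleus samples was sequenced as single reads from stranded libraries. The authors aligned reads with STAR 2.7.3a to GRCm38 and deposited raw counts per gene made with featureCounts 2.0.3 and not scaled. A second deposited table holds the normalized signal of the authors, in which each count is divided by the DESeq2 size factor of its library (0.773 to 1.42), used here for gene symbols and as an alternative in the ratios. A deposited table of the authors' DESeq2 comparison (fold changes and p-values) was not used. Columns of values with no sample numbered 0.

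Raw counts were fitted in R 4.3.3 with edgeR 4.0.16 (filterByExpr with a minimum count of 10, TMM, robust quasi-likelihood test of genotype, Benjamini-Hochberg over 14696 genes, threshold 0.05). The biological coefficient of variation was 0.143. CPM used TMM-scaled library sizes, and RPKM also the gene length of the count table. DESeq2 1.42.0 and limma 3.58.1 served as alternatives, with other scalings, filters, length and GC trends and each library left out. Scripts were tested on simulated data. Gene models came from GENCODE M21, which holds 51633 of 51912 genes, 94.1% with the same coordinates.

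The 10 genes and all lists were chosen with earlier results of these data known. From each calcium list the text names genes past the threshold, genes with an unadjusted p under 0.05 whose genotypes do not overlap, and those with the lowest and highest log2 fold change. *Myh7*, *Myh2*, *Myh1* and *Myh4* were named from the fiber lists, *Mustn1* as the check of genotype, and *Xist*, *Ddx3y*, *Kdm5d*, *Uty* and *Eif2s3y* as checks of the labels.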

Additional observations from a re-analysis of the deposited data

How the results depend on the processing

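No calcium gene passed the threshold under any of 20 alternatives per gene, with a lowest adjusted p of 0.256, and 6 of the 10 (*Atp2a2*, *Sln*, *Pln*, *Casq1*, *Pvalb* and *Jph1*) kept their direction in all of them. Leaving out a library gave -1.13 to -0.62 for *Pvalb* and -0.67 to -0.26 for *Pln*, the latter without WT 3. The other 4 genes lie near 0 and changed sign. *Ryr1* was at 0.0022 with RLE factors and with DESeq2, 0.0242 with upper quartile factors, 0.0684 with library sizes alone, 0.0526 with scaling to the muscle fiber list, 0.0041 without a filter, 0.0091 with 10 counts in every library and 0.0456 with the length trend removed. *Casq2* was at 0.0391 with library sizes alone and 0.0304 with the fiber list. With the GC trend removed, chosen after seeing the data, *Casq2* was at 0.0005 and *Cacna1s* at -0.0147. With a library left out, *Ryr1* ranged from -0.18 to 0.11, *Casq2* from -0.15 to 0.0729, *Cacna1s* from -0.0818 to 0.0813 and *Atp2a1* from -0.22 to 0.0124. The log2 difference in the ratio of *Atp2a1* to *Atp2a2* then ranged from -0.13 to 0.0946, that of *Casq1* to *Casq2* from -0.16 to 0.046 and that of *Sln* to *Pln* from 0.12 to 0.36. The cause of these changes was not tested.

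Over all genes, 22 passed the threshold in the edgeR fit, against 404 without a filter, 226 with DESeq2 and 3 with limma-voom. The number was 6 with non-robust dispersion and 8 with the GC trend removed. With a library left out, 83 passed without WT 3, 15 without HET 2, and none without HET 1, HET 3, WT 1 or WT 2. Where no gene at all passed, the absence of a calcium gene says little about the calcium genes. The labels do not say whether equal replicate numbers pair the samples. The deviations of same-numbered libraries from their genotype means correlated at 0.203, -0.0058 and -0.0349, and those of the other pairs at -0.137 to 0.133. With 3 libraries per genotype these values cannot decide it. With the replicate numbers as a block 116 genes passed, 142 with the length trend removed as well and 97 with the GC trend removed as well, and no calcium gene did. Under the replicate block with the length trend removed *Ryr1* was at 0.0195, and with the GC trend removed *Casq2* was at 0.0028 and *Cacna1s* at -0.0150. The block left the 3 ratio differences at -0.0034, -0.07 and 0.24. This was fixed in advance, because the mean of the pair differences equals the difference of the genotype means. The smallest exact p of 3 pairs is 0.25. *Pln* had the fewest reads of the calcium genes, 102 to 318 per library.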
